A study of Mus musculus with 2 samples.

Results

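The genes described here are 33 enzymes and regulators of cholesterol and fatty acid synthesis, chosen by gene symbol from a table of 54532 genes. They form a sterol branch of 20 genes, from Hmgcs1 to Stard4, and a fatty acid branch of 13 genes, from Fasn to Elovl6. All 33 symbols stood on 1 line each of the table, and 32 had a mean of at least 1 FPKM (fragments per kilobase of gene length, scaled to library size); the exception was Acacb. RNA was sequenced from young mice, aged 3 to 4 weeks, that were either wild type (WT) or knocked out for Trappc9 (KO), with 1 library for each of the 2 genotypes. Trappc9 encodes a subunit of TRAPP, a tethering complex of vesicle transport. The design text describes abdominal fat pads of 3 WT and 3 KO mice that were digested with collagenase, whereas the extraction label describes frozen pads, and the titles name stem cells derived from adipose tissue. The sources used here give neither the strain, nor how the knockout allele was built, nor whether the mice of a genotype were pooled.

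Cells build cholesterol from acetyl-CoA through mevalonate, the isoprenoid diphosphates, squalene and lanosterol, and build fatty acids from malonyl-CoA on fatty acid synthase. Transcription of both sets is driven by the SREBP proteins, membrane-bound factors that travel from the endoplasmic reticulum to the Golgi for cleavage when sterols are scarce; SREBP2 acts mainly on sterol genes and SREBP1 mainly on fatty acid genes. In adipose tissue the fatty acid branch supplies triglyceride stores, and stearoyl-CoA and fatty acyl desaturases set the unsaturation of membrane and stored lipid.

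With 1 library per genotype, differences cannot be checked against replicates, and no p-values are given. Levels are deposited FPKM. Differences are log2((KO + 1)/(WT + 1)), or the plain KO over WT ratio of FPKM with an exact 95% Clopper-Pearson interval from the fragments behind each value. A gene is called higher or lower beyond counting error when that interval excludes 1. The interval covers counting error alone, with no account of the spread between animals or preparations or of duplicated molecules. The WT-labelled library held 13705193 fragments and the KO-labelled library 14783728, of which each member took 112 to 24917 and 137 to 24928. Where 2 values are given without a label, the WT-labelled library comes first.

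Trappc9, the targeted gene, stood at 9.94 FPKM in the WT-labelled library and 12.6 FPKM in the KO-labelled library. Its ratio was 1.27 (1.17 to 1.37), so this value over the whole gene was not lower but higher beyond counting error under the KO label. A deletion of part of the transcript could leave such a value in place, so it checks neither label. The adipose label was set against marker genes. The 10 adipocyte markers summed to 52.4 FPKM in the WT-labelled library and 50.3 FPKM in the KO-labelled library. Of the 8 with a mean of at least 1 FPKM, 1 (Pnpla2) was higher and 2 (Adipoq and Plin1) were lower beyond counting error. Pnpla2 had the highest level of the list in both libraries. Adipoq was at 2.30 and 0.51 FPKM, and Lep, below that minimum, at 0.063 and 0.083 FPKM. The 12 epididymal epithelium markers summed to 22139 and 30282 FPKM, and all 12 were higher beyond counting error in the KO-labelled library. The 8 spermatid and sperm markers were likewise all higher (38.2 and 184 FPKM summed), whereas the 8 proliferation markers were all lower (62.9 and 32.0 FPKM summed). Of 8 adipose progenitor markers, 3 were higher and 5 lower (245 and 212 FPKM summed), and 0 of 6 macrophage markers were higher and 2 lower (142 and 131 FPKM summed). Sterol and fatty acid synthesis genes are expressed in many of these cell types. The part of such shifts in any difference below was not tested, and in such bulk RNA fewer cells of a type and less RNA per cell cannot be told apart.

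The 2 branches differed in level, and their median ratios lay close to 1. Summed over its 13 genes, the fatty acid branch stood at 1077 FPKM in the WT-labelled library and 1190 FPKM in the KO-labelled library. The 20 sterol genes summed to 385 and 399 FPKM. The fatty acid sum was thus 2.80 times the sterol sum in the first library and 2.98 times in the second. Both values rest on the deposited gene lengths. With the longer lengths of Fads2 and Fads1 in GENCODE M21, given below, both would be lower. Among the 32 measured members, 12 were higher and 8 lower beyond counting error, with a median log2 ratio of 0.0013, against 24.6% higher and 17.6% lower of the 13084 protein-coding genes that passed the same minimum and a median of 0.02 over these.

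By branch, 5 of 20 sterol genes were higher and 6 lower (median log2 ratio −0.05), and 7 of 12 measured fatty acid genes were higher and 2 lower (median 0.11). Thus 25% of the sterol genes were higher, close to the share of all genes, and 30% lower, above it, whereas 58.3% of the fatty acid genes were higher and 16.7% lower. Abundant genes have narrower intervals and are called more often, so the same counts were taken over genes with at least 2000 fragments in both libraries together, a limit set after the values were seen. Of 3376 such protein-coding genes, 40.0% were higher and 17.8% lower. Of the 10 fatty acid genes among them 7 were higher and 1 lower, and of the 10 sterol genes 4 were higher and 2 lower. The sterol median was 0.02 over these abundant genes, not below 0 as over the whole branch, and the fatty acid median was 0.15. The branches overlapped, since log2 ratios ran from −0.29 to 0.57 in the sterol branch and from −0.25 to 0.34 in the fatty acid branch. No member reached 1.5-fold on the log2(FPKM + 1) scale in either direction, against 2.79% of all genes higher and 2.11% lower by that measure. None therefore reached 2-fold, against 0.948% and 0.290% of all genes.

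**Figure D1:**
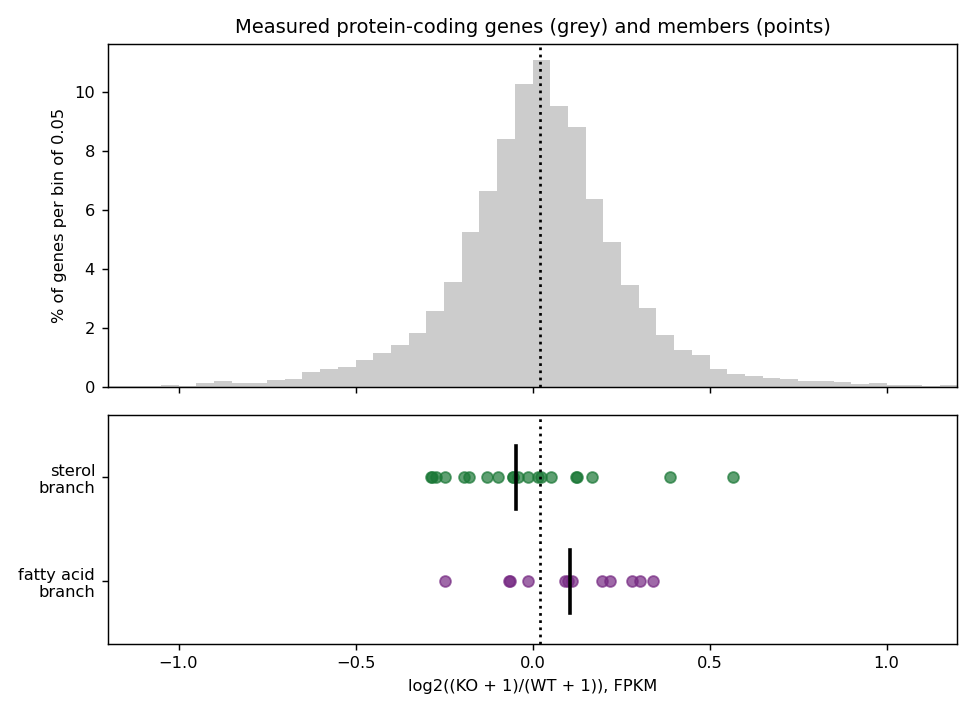
Log2 ratios, KO over WT, on the log2(FPKM + 1) scale. The upper panel gives the percentage of 13084 protein-coding genes in bins of 0.05, and the lower panel gives each measured member as a point with the branch median as a black bar; the dotted line is the median of all genes, 0.02. The sterol median, −0.05, lies to its left and the fatty acid median, 0.11, to its right, and the points of both branches overlap.

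The signs of the fatty acid median and of the median of all genes depended on the scaling between libraries. The median of the whole sterol branch was negative under each scaling. The deposited values carry a scaling under which the median of all genes was 0.02. With the same sum of FPKM in both libraries, as in TPM, that median was −0.15, a shift of −0.17; the sterol median became −0.23 and the fatty acid median −0.08. Set against that median, the sterol branch stood at −0.07 as deposited and −0.08 after that rescaling, and the fatty acid branch at 0.08 and 0.08. The difference of the branch medians, sterol minus fatty acid, was −0.15 as deposited; a rescaling multiplies every ratio by the same factor, so it could hardly move this difference and does not test it.

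**Figure D2:**
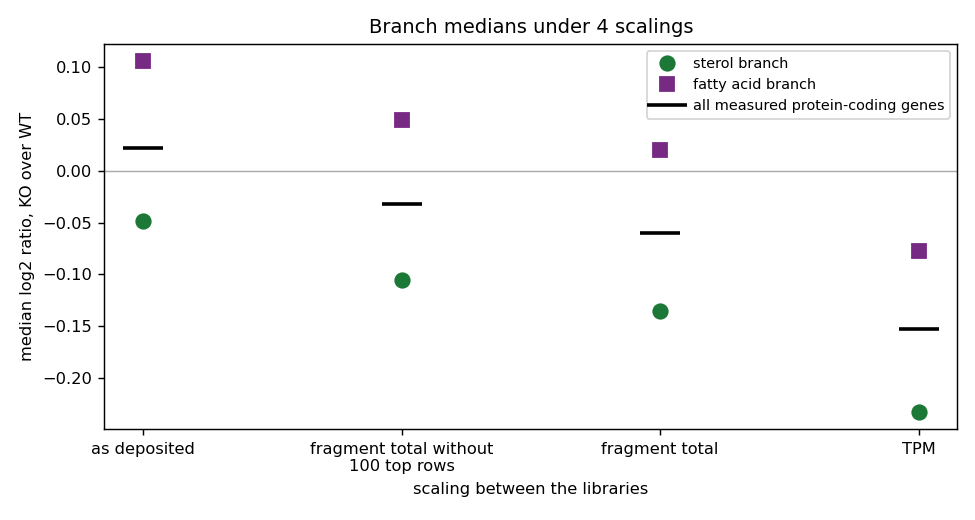
Median log2 ratio, KO over WT, of the sterol branch (circles), the fatty acid branch (squares) and all 13084 measured protein-coding genes (bars) under 4 scalings between the libraries. All 3 medians move down together from the deposited scaling to TPM, since each scaling multiplies every ratio by the same factor.

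The choice by symbol did not use promoter sequence itself. Both branches were chosen as driven by SREBP, so motifs of its partners are not independent of that choice. RefSeq promoters (GRCm38.p6, the assembly also called mm10) were found for 26 of the 33 members, 16 sterol and 10 fatty acid genes, and the 250 bases before the start site were searched on both strands for 4 motifs. The CCAAT box (letters CCAAT), bound by NF-Y, a known partner of SREBP on sterol promoters, was in 15 of 16 sterol promoters (93.8%), Dhcr7 being the exception, and in 5 of 10 fatty acid promoters. It was in 33.8% of all 32851 promoters of the table and in 36.3% of the 10259 promoters of measured protein-coding genes. The GC box (GGGCGG), bound by Sp1, was in 15 of 16 sterol and 5 of 10 fatty acid promoters, against 32.7% of all promoters and 59.0% of those of measured genes. The E-box (CANNTG) was in 10 of 16 and 5 of 10, against 66.2% and 57.3%. One strict form of the sterol regulatory element (TCACNCCAC) was in 1 member promoter, that of Hmgcs1, against 1.05% of all promoters and 0.926% of those of measured genes. A match is a description of letters in this window and not evidence of binding.

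The promoters of 5 genes are printed 5′ to 3′ to show these letters in members that were higher and in members that were lower, taken from the 9 whose window held no annotated exon: the highest and lowest ratio of each branch, and Mvd, which with Ebp held the most CCAAT boxes among the rest. Capitals mark CCAAT or its reverse complement and, in Hmgcs1, also the sterol regulatory element. The windows, on GRCm38.p6, are chr13:119690101-119690350 on the plus strand for Hmgcs1, chr3:89454291-89454540 on the plus strand for Pmvk, chr8:122443423-122443672 on the minus strand for Mvd, chr11:120824548-120824797 on the minus strand for Fasn, and chr11:100528001-100528250 on the minus strand for Acly.
Hmgcs1: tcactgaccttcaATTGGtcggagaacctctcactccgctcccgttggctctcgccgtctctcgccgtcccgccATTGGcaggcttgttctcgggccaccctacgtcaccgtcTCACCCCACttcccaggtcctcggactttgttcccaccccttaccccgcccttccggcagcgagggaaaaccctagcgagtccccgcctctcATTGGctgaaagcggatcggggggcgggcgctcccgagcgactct
Mvd: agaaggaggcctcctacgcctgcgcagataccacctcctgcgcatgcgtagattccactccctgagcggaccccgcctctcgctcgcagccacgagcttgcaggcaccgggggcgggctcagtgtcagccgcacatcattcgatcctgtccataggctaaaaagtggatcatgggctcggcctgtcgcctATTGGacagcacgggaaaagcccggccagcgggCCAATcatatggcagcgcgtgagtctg
Pmvk: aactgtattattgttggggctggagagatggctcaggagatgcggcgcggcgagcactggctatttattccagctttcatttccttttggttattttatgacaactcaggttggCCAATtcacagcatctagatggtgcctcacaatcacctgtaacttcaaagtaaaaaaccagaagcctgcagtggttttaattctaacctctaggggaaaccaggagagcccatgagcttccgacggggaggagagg
Fasn: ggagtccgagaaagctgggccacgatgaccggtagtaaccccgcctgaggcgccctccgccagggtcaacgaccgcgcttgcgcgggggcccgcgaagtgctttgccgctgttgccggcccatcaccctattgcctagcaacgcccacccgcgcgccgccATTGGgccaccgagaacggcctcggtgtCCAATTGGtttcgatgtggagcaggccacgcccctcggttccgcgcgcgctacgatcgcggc
Acly: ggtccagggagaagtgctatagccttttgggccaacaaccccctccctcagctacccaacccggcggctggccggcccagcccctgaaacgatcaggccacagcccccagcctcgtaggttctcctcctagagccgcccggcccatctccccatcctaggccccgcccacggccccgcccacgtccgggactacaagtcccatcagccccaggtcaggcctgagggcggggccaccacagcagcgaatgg
In Hmgcs1 the sterol regulatory element lay 137 to 129 bases before the start, between CCAAT boxes that began 237, 176 and 45 bases before it. In Mvd the boxes began 60 and 27 bases before the start, and Pmvk held 1 box, 136 bases before it. Fasn held 3, of which those beginning 62 and 59 bases before the start overlap in opposite orientation. Acly, the measured fatty acid gene with the highest ratio, held none, and 4 GC boxes. The promoters of a gene that was lower (Hmgcs1) and of one that was higher (Pmvk) both held CCAAT boxes. With the box in 15 of 16 sterol promoters, this pair cannot show whether it goes with direction.

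Counts in the parts of each branch that follow are read against 24.6% higher and 17.6% lower of all measured protein-coding genes. Of the abundant ones, with at least 2000 fragments, 40.0% and 17.8% were so called. The mevalonate part of the sterol branch carries acetyl-CoA units to farnesyl diphosphate. It had 1 of 6 genes higher and 2 lower, with a median log2 ratio of −0.14. Hmgcs1 (ENSMUSG00000093930, chromosome 13, 119690379 to 119708260, mm10), which makes HMG-CoA in the cytosol, stood at 39.8 FPKM in the WT-labelled library and 32.8 FPKM in the KO-labelled library. The lower value in the KO-labelled library gave a ratio of 0.823 (counting interval 0.777 to 0.872) from 2593 and 2155 fragments. Of the 50-base words of Hmgcs1, 11.6% were shared with other genes, most often with Gm48342, which overlaps it on the other strand. Fdps, farnesyl diphosphate synthase, was at 2.99 and 2.28 FPKM, a ratio of 0.762 (0.605 to 0.958) from 178 and 137 fragments. Its level was below those of Idi1 and Fdft1, the steps before and after it. Of the 50-base words of Fdps, 26.2% also occurred in transcripts of other genes, most often Gm43738. The shares of Idi1 (25.3%) and Fdft1 (26.5%) were near in size but not alike in kind. Those of Fdft1 fell most often in Ctsb, which overlaps it on the other strand. Whether reads were split between copies, and whether this changed the level or the ratio of Fdps, was not tested.

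Pmvk, phosphomevalonate kinase (ENSMUSG00000027952, chromosome 3, 89454541 to 89469013), went the other way, at 14.01 and 18.7 FPKM with a ratio of 1.33 (1.15 to 1.54). Pmvk shared no 50-base word with other genes. The other kinase of the pathway, Mvk, was at 10.2 and 9.43 FPKM. The decarboxylase Mvd was at 17.2 and 15.04 FPKM, and the isomerase Idi1, which like Fdps shared words with other annotated genes (25.3%), at 10.5 and 10.1 FPKM. The intervals of these last 3 genes included 1.

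From squalene to lanosterol, 0 of 3 genes were called in either direction. Fdft1, squalene synthase, was at 34.0 and 34.6 FPKM, with a ratio of 1.02 (0.956 to 1.08). It overlaps the protease gene Ctsb (80.2 and 83.1 FPKM) on the other strand, and the sources used here do not say whether fragments were counted by strand. Sqle, squalene epoxidase, was at 18.3 and 17.7 FPKM, and Lss, lanosterol synthase, at 7.19 and 6.89 FPKM. Their ratios were 0.970 and 0.958.

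The steps after lanosterol held the highest ratio of all members. Nsdhl (ENSMUSG00000031349, chromosome X, 72918557 to 72958514), a dehydrogenase that acts with Msmo1 and Hsd17b7 to remove methyl groups of the sterol ring, was at 32.1 FPKM in the WT-labelled library and 48.0 FPKM in the KO-labelled library. The ratio was 1.496 (1.39 to 1.61) from 1296 and 1958 fragments, and the log2 ratio 0.57. Its partners did not share that size. Msmo1, the methyl oxidase, was at 15.2 and 16.6 FPKM with a ratio of 1.09 (1.01 to 1.18), and Hsd17b7, the ketoreductase of the same complex, was lower, at 6.83 and 5.85 FPKM with a ratio of 0.856 (0.750 to 0.976). Under TPM scaling the log2 ratio was 0.37 for Nsdhl and 0.20 for Pmvk, and −0.07 for Msmo1, whose direction thus depends on the scaling.

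Of the 5 other genes after lanosterol, 2 were lower and none higher. Cyp51, the lanosterol demethylase, was at 33.5 and 30.6 FPKM (ratio 0.913, 0.858 to 0.971). Dhcr7, which catalyses the last reduction in one route to cholesterol and whose loss in humans causes Smith-Lemli-Opitz syndrome, was at 2.59 and 2.02 FPKM (ratio 0.781, 0.634 to 0.961). These genes, from the first and the last step of this stretch, were lower by different amounts and stood at very different levels. The isomerase Ebp (20.3 and 21.1 FPKM), the desaturase Sc5d (12.5 and 12.4 FPKM) and the reductase Tm7sf2 (12.9 and 13.0 FPKM) had intervals that included 1.

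Among the 3 control and transfer genes of the sterol branch, 2 were higher and 1 lower. Srebf2, which encodes SREBP2, was at 40.0 and 45.1 FPKM with a ratio of 1.13 (1.08 to 1.18). Insig1, the endoplasmic reticulum protein that holds back the SREBP complex and is itself an SREBP target, was at 44.0 and 48.1 FPKM with a ratio of 1.09 (1.03 to 1.16). Stard4, a carrier that moves cholesterol between membranes, was at 10.96 and 8.81 FPKM with a ratio of 0.804 (0.727 to 0.889) and a log2 ratio of −0.29. Under TPM scaling the log2 ratios of Srebf2 and Insig1 were −0.03 and −0.07, so their direction depends on the scaling. SREBP2 is controlled by cleavage, which transcript levels do not measure.

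**Figure D3:**
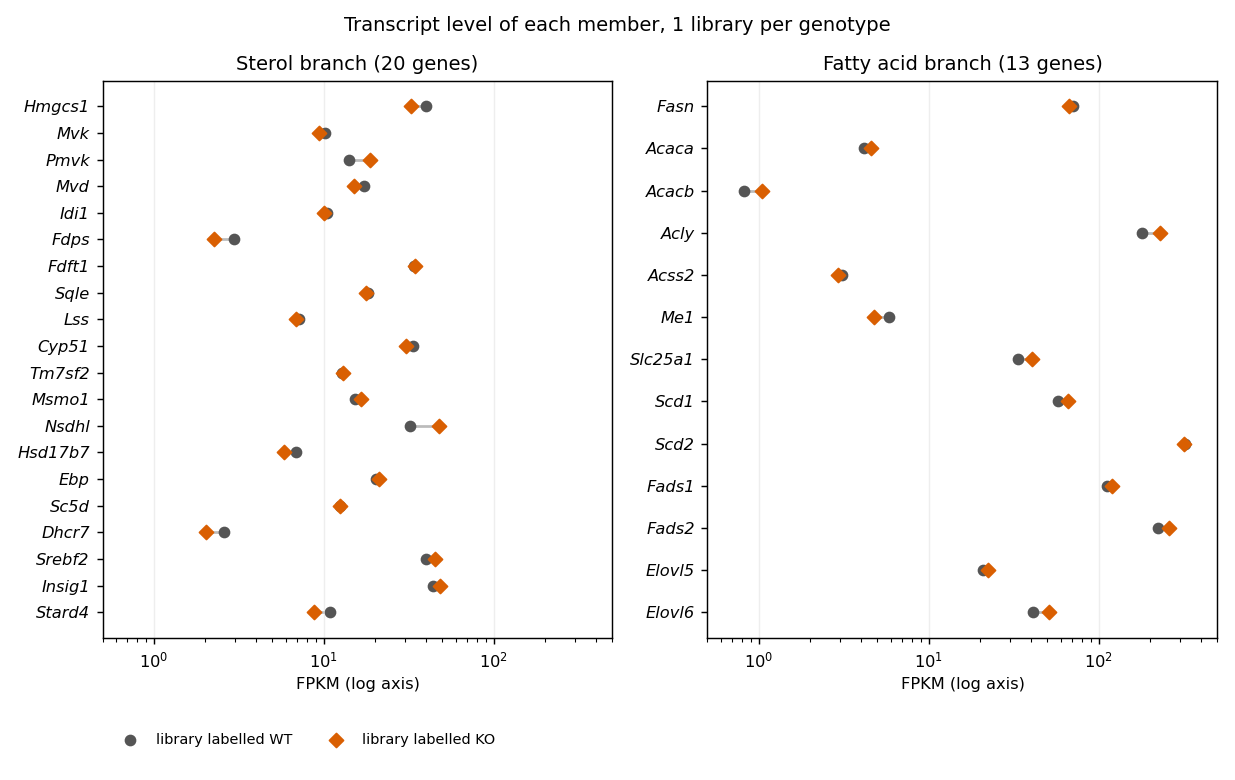
FPKM (log axis) of each member in the WT-labelled library (grey circles) and the KO-labelled library (orange diamonds), joined by a line, for the 20 sterol genes on the left and the 13 fatty acid genes on the right. Levels span from 0.821 FPKM for Acacb to 323 FPKM for Scd2 in the WT-labelled library, and the pair of points of a gene lies close together at this range, with the widest gaps at Nsdhl and Pmvk, higher under the KO label, and at Fdps and Dhcr7, lower under it.

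Of the 4 fatty acid branch genes that supply acetyl-CoA and NADPH, 2 were higher and 1 lower. Acly, ATP citrate lyase (ENSMUSG00000020917, chromosome 11, 100476353 to 100528000), which splits exported citrate into acetyl-CoA, was at 181 FPKM in the WT-labelled library and 230 FPKM in the KO-labelled library. Its ratio was 1.27 (1.24 to 1.30) from 13534 and 17335 fragments, and it shared no 50-base word with other genes. Slc25a1, the mitochondrial carrier that exports that citrate, was at 33.4 and 40.8 FPKM with a ratio of 1.22 (1.12 to 1.33). Acss2, which makes acetyl-CoA from acetate, was at 3.09 and 2.92 FPKM, within counting error, and Me1, malic enzyme, a source of NADPH, was lower at 5.83 and 4.76 FPKM with a ratio of 0.816 (0.690 to 0.964). Of the 50-base words of Me1, 28.3% were shared with other genes.

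The enzymes that build the chain itself differed little. Fasn, fatty acid synthase (ENSMUSG00000025153, chromosome 11, 120805846 to 120824547), was at 70.3 and 67.0 FPKM, with a ratio of 0.954 (0.928 to 0.980) from 10893 and 10491 fragments. This was a small difference that passed counting error because of its depth. Acaca, the cytosolic acetyl-CoA carboxylase, was at 4.17 and 4.59 FPKM (ratio 1.10, 1.01 to 1.20). The mitochondrial carboxylase isoform Acacb was the lowest member, at 0.821 and 1.05 FPKM from 112 and 144 fragments, with a ratio of 1.27 (0.988 to 1.64). The level of Acaca was 5.08 times that of Acacb in the WT-labelled library and 4.39 times in the KO-labelled library; 30.4% of the words of Acaca were shared with other annotated genes.

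Of the 4 desaturases, all abundant, 3 were higher and 0 lower, against 40.0% and 17.8% of the abundant genes. Under TPM scaling Scd1 and Fads2 had intervals that included 1, and Scd2 and Fads1 were lower beyond counting error. Scd2 (chromosome 19, 44293676 to 44306864), a stearoyl-CoA desaturase that makes monounsaturated fatty acids, had the highest level of all 33, at 323 and 320 FPKM. Its ratio of 0.991 (0.973 to 1.01) came from 24917 and 24928 fragments, the tightest interval of any member. Scd1 (chromosome 19, 44394451 to 44407709), the isoform that is dominant in liver and mature fat, lies 87.6 kb from Scd2 and was at 57.5 and 65.9 FPKM with a ratio of 1.15 (1.10 to 1.20). Scd2 thus stood at 5.61 times the level of Scd1 in the WT-labelled library and 4.85 times in the KO-labelled library. Of their 50-base words, 3.97% for Scd2 and 4.56% for Scd1 occurred in other genes, most often in the related gene Scd3.

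Fads1 and Fads2, the front-end desaturases of polyunsaturated fatty acid synthesis, are neighbours on chromosome 19, with 81.4 kb between them. Fads2 was at 224 and 260 FPKM (ratio 1.16, 1.12 to 1.21), and Fads1 at 112 and 120 FPKM (ratio 1.07, 1.03 to 1.11). Their levels per length depend on the gene model. The deposited length of Fads2 was 1508 bases, against 3295 bases of exon in GENCODE M21, and that of Fads1 was 3456 against 4812. With the same fragments over the M21 lengths, Fads2 would stand at 102 and 119 FPKM and Fads1 at 80.6 and 86.4 FPKM. The ratio between libraries does not depend on length.

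Of the 2 elongases, Elovl6 was higher. Elovl6, which takes palmitate to stearate, was at 41.2 and 51.1 FPKM with a ratio of 1.24 (1.19 to 1.30). Elovl5, which lengthens polyunsaturated chains, was at 20.8 and 22.3 FPKM with a ratio of 1.07 (0.982 to 1.16). Elovl6 uses the product of Fasn, and these neighbours in the pathway had ratios on opposite sides of 1. Under TPM scaling the log2 ratios of Acly and Elovl6 were 0.14 and 0.11, and these 2 were the fatty acid genes still higher beyond counting error. Slc25a1 and Fads2, at 0.08 and 0.02, then had intervals that included 1, and Scd1, Fads1 and Acaca stood at −0.0041, −0.10 and −0.05.

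**Figure D4:**
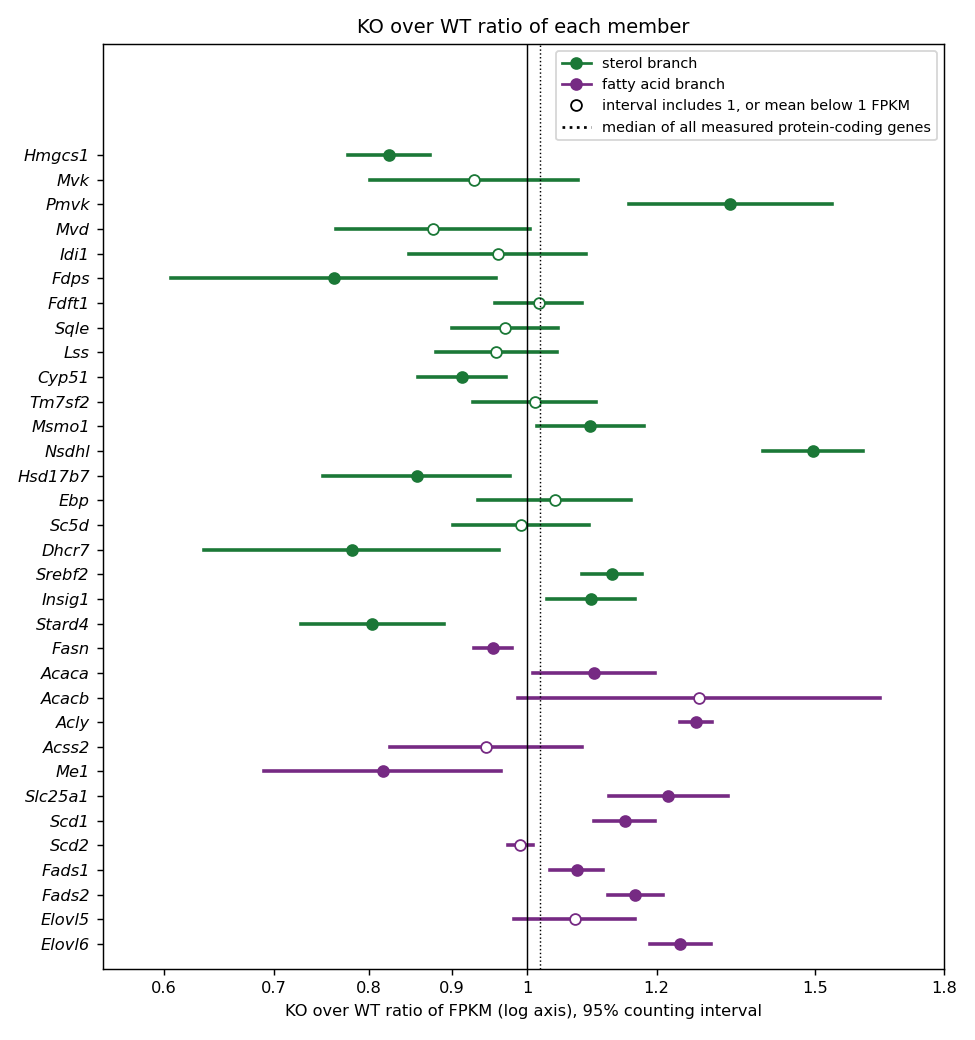
KO over WT ratio of FPKM (log axis) of each member with its exact 95% counting interval, sterol branch in green and fatty acid branch in purple. Open circles have intervals that include 1 or, for Acacb, a mean below 1 FPKM; the solid line is at 1 and the dotted line at the median of all measured protein-coding genes, 1.02. Nsdhl (1.496), Pmvk (1.33) and Acly (1.27) lie farthest to the right among filled circles, and Fdps (0.762) and Dhcr7 (0.781) farthest to the left, with wide intervals.

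Members lay at very different places in the order of all genes by level. Of the 32 measured members, 12 lay in the upper 10% of measured protein-coding genes by mean FPKM, and 7 lay below the median gene. Scd2, Fads2, Acly and Fads1 stood above 99.2%, 98.9%, 98.6% and 97.4% of those genes. The places of Fads2 and Fads1 rest on their short deposited lengths. Within the sterol branch, Insig1, Srebf2, Nsdhl and Hmgcs1 were at 92.6%, 91.9%, 91.4% and 90.4%, whereas Fdps and Dhcr7 were at 18.9% and 15.9%. The most abundant sterol genes were thus spread over control, early and late steps. Whether the 26.2% of 50-base words that Fdps shares with other genes lowered its place was not tested.

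Counts in the related lists that follow are read against the 24.6% higher and 17.6% lower of all measured protein-coding genes. For the abundant ones these shares were 40.0% and 17.8%. All related lists were counted at the deposited scaling alone. TPM scaling multiplies every ratio by 0.869, so it can only lower the number called higher. It took all genes to 7.88% higher and 48.4% lower. Of 3 steps of sterol synthesis outside the chosen members, 1 was higher and 0 lower, with a median log2 ratio of −0.05. Acat2, which joins acetyl-CoA units before Hmgcs1, was at 48.0 and 67.6 FPKM (ratio 1.41, 1.32 to 1.497). Acat2 was thus higher and Hmgcs1, the next enzyme, lower. Erg28, a scaffold of the sterol demethylation enzymes, was at 10.7 and 9.67 FPKM, and Lbr, a lamin receptor that is also a sterol reductase, at 8.87 and 8.56 FPKM, both within counting error. The isoprenoid branch, which uses farnesyl diphosphate for prenylation, dolichol and coenzyme Q, had 0 of 11 genes called in either direction and a median of 0.02.

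Genes that process SREBP and sense sterols had 3 of 8 higher and 0 lower, with a median of 0.06; 37.5% higher lies between the share of all genes and that of the abundant ones. Srebf1, which encodes SREBP1, was at 84.5 and 89.0 FPKM (ratio 1.05, 1.02 to 1.09) and was named after its values were seen. In both libraries its level was above that of Srebf2. Insig2 was at 11.1 and 10.4 FPKM, within counting error.

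Uptake and release of cholesterol had 5 of 8 genes higher and 1 lower, with a median of 0.20. Npc2, which hands cholesterol out of the lysosome, was at 114 and 205 FPKM (ratio 1.79, 1.74 to 1.84) and Mylip, a ubiquitin ligase induced by LXR, at 17.7 and 21.6 FPKM (ratio 1.22, 1.11 to 1.34). The endocytic receptor Lrp1 was the gene that was lower, at 29.6 and 25.8 FPKM (ratio 0.871, 0.843 to 0.901). LXR receptors with efflux and esterification genes had 6 of 9 higher and 0 lower, with a median of 0.20. Ch25h, which makes an oxysterol that keeps SREBP in the endoplasmic reticulum, was at 1.67 and 3.73 FPKM (ratio 2.23, 1.45 to 3.49, from 32 and 72 fragments), and Abcg1, a cholesterol exporter, at 3.46 and 5.09 FPKM (ratio 1.47, 1.23 to 1.77). The LXR gene Nr1h3 was at 2.98 and 2.28 FPKM, within counting error.

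Genes around the fatty acid branch were mixed. Of 15 measured genes of elongation, desaturation and activation, 5 were higher and 3 lower, with a median of 0.00033. Elovl2, an elongase of long polyunsaturated chains, was at 4.77 and 13.9 FPKM, a ratio of 2.92 (2.54 to 3.37) from 268 and 790 fragments, and Elovl4, which makes very long chains, at 13.1 and 19.3 FPKM (ratio 1.47, 1.32 to 1.64). Hacd1, a dehydratase of the elongation cycle, was lower at 6.23 and 3.40 FPKM (ratio 0.545, 0.425 to 0.697). Regulators of fatty acid synthesis had 4 of 9 higher and 0 lower (median 0.09), among them Thrsp (3.16 and 4.50 FPKM) and Mlxipl, the carbohydrate-response factor (4.98 and 6.80 FPKM). In these same libraries, at the deposited scaling, the epididymal and sperm markers given above were higher as well, and the proliferation markers lower. The part of such shifts in the differences of these genes was not tested.

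**Figure D5:**
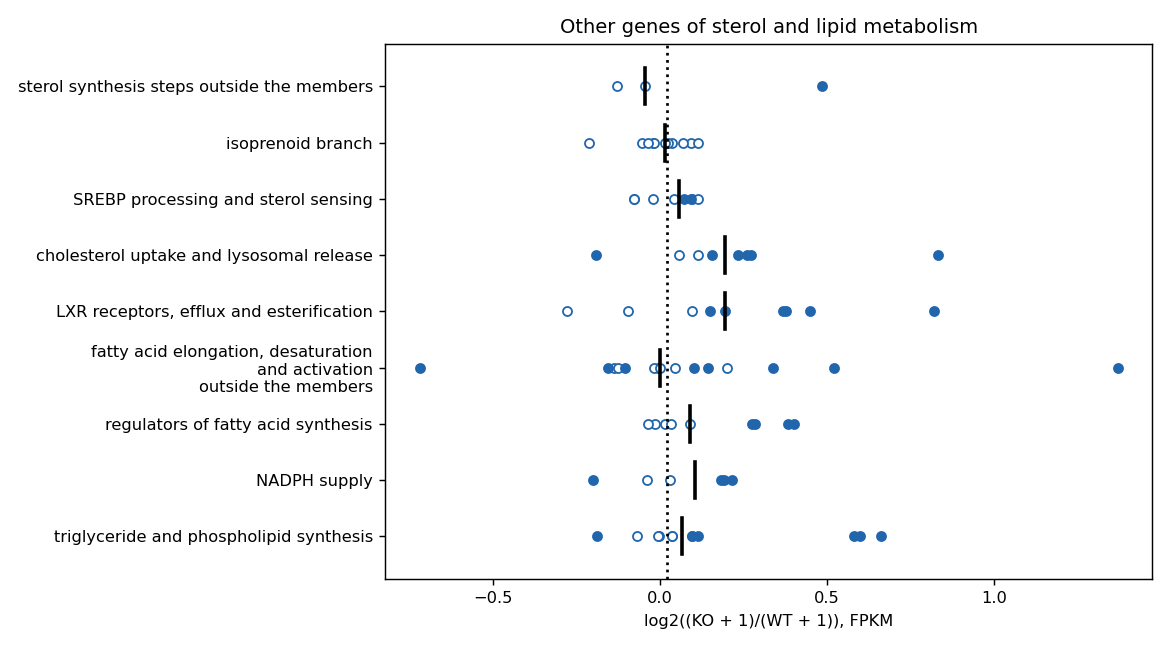
Log2 ratio, KO over WT, on the log2(FPKM + 1) scale of the measured genes of 9 related lists; filled points are beyond counting error, black bars are list medians and the dotted line is the median of all measured protein-coding genes, 0.02. The isoprenoid genes hold no filled point, the LXR and efflux list has its filled points to the right of 0, and Elovl2 is the point at 1.37.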

How the data were processed

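RNA sequencing of 2 libraries, 1 per genotype, was analysed from a deposited table of FPKM per gene made by the authors. Builds mm10 and hg38 and the aligner HISAT2 2.0.5 are named in the submitters' processing notes; counting program and annotation are not given in the sources used here. Fragments were recovered from gene length times FPKM, which came in whole steps in 100% of the values above 0 (tolerance 0.01 fragment). Of the 33 members, 33 identifiers occurred in GENCODE M21 (GRCm38) and 28 had the same coordinates and 28 the same exon length there. A pseudocount of 1 FPKM and a minimum mean of 1 FPKM were used, and intervals were exact (Clopper-Pearson, 95%). The recovery of fragments and the intervals were tested on simulated data. Words of 50 bases were compared, on both strands, with all M21 transcripts. Members and lists were chosen with earlier results of these data known. All members could be named, and from each related list the 2 measured genes at either end of the order by log2 ratio; other genes named are said to be so, are marker genes, or are Trappc9. Lists of Leydig cell, hepatocyte, sebaceous gland and spermatocyte markers were also measured. Python 3.11.15, numpy 2.4.6, pandas 2.3.3, scipy 1.17.1 and matplotlib 3.10.9 were used. Some genes of the related lists are not reported here and were left out of their counts and medians. Identity between proteins was not analysed here.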

Additional observations from a re-analysis of the deposited data

How the results depend on the processing

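With 1 library per genotype no replicate could be left out, and the counting intervals, which depth sets, do not cover the spread between animals. No paired analysis was possible because each genotype has 1 library. The difference of branch medians, sterol minus fatty acid, was below 0 under the 7 alternatives that could change it (a rescaling or a sum of lines could not, or hardly), from −0.24 (without the 8 members that share at least 5% of their 50-base words with other genes, chosen after seeing the data) to −0.12 (pseudocount of 5 FPKM). TPM scaling moved the medians to −0.19 for all members, −0.23 for the sterol branch and −0.077 for the fatty acid branch, and the calls to 2 sterol genes higher and 14 lower, and 2 fatty acid genes higher and 5 lower, where all genes gave 7.88% and 48.4%; the multiplication of every ratio by 0.869 is what changed. It turned the log2 ratios of Msmo1 (−0.069), Srebf2 (−0.030), Insig1 (−0.071), Acaca (−0.054), Scd1 (−0.0041) and Fads1 (−0.10) negative. Relative to the median of all genes, chosen after seeing the data, 4 sterol genes were higher and 7 lower, and 6 fatty acid genes higher and 3 lower, where all genes gave 21.3% and 20.6%. Scaled to the fragment total, or to that total without the 100 most abundant rows, 3 sterol genes were higher and 9 lower, and 5 fatty acid genes higher and 3 lower, where all genes gave 14.5% and 30.3% under the first and 17.4% and 25.6% under the second. Without members sharing words, 5 sterol genes were higher and 4 lower, so lower genes no longer outnumbered higher ones there. Of the fatty acid genes, 6 were then higher and 1 lower. All genes gave 24.6% and 17.6%. Hmgcs1, Fdps and Me1, each lower, and Acaca, higher, were among those left out.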

Other observations

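Triglyceride and phospholipid synthesis, which uses the products of the fatty acid branch, had 5 of 12 genes higher and 1 lower beyond counting error, with a median log2 ratio of 0.07, against 24.6% higher and 17.6% lower of all measured protein-coding genes. Lpin3 and Dgat2 had its highest log2 ratios. Lpin3, a phosphatidate phosphatase, stood at 5.68 FPKM in the WT-labelled library and 9.56 FPKM in the KO-labelled library, a ratio of 1.68 with a counting interval of 1.46 to 1.95. Dgat2, which adds the last acyl chain of triglyceride, was at 8.27 and 13.0 FPKM, a ratio of 1.58 (1.38 to 1.80). Agpat1, an earlier acyltransferase, was the gene that was lower, at 35.8 and 31.3 FPKM. Genes that supply NADPH had 3 of 6 higher and 1 lower, with a median of 0.11: G6pdx, the entry enzyme of the pentose phosphate pathway, was at 50.1 and 58.3 FPKM and Idh1 at 16.5 and 14.2 FPKM.

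Markers of cell types that make much sterol or fatty acid were low. The 6 Leydig cell markers summed to 10.0 FPKM in the WT-labelled library and 13.98 FPKM in the KO-labelled library, the 6 hepatocyte markers to 9.51 and 6.23 FPKM, and the 6 sebaceous gland markers to 3.01 and 2.91 FPKM. Of measured members of these lists, 1 of 3, 0 of 2 and 0 of 1 were higher and 0, 1 and 0 lower. The 7 spermatocyte markers summed to 21.8 and 10.5 FPKM, with 1 of 5 measured higher and 3 lower. These counts stand beside 24.6% higher and 17.6% lower of all measured protein-coding genes.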
